A study of Mus musculus with 2 samples.

Results

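Pax2, Pax8, Sox4, Sox9, Maf, Tfcp2l1, Irx1 and Emx1 are 8 transcription factor genes that mark tubule identity or tubule repair in the kidney. They were taken by gene symbol from a table of normalized signal for 19829 genes, in which all 8 were listed. RNA came from whole kidney, with 1 library for each group, named WT+AKI and TG+AKI by the submitters. The labels speak of mice in the plural, and how many mice gave each library is not stated. WT+AKI came from control mice and TG+AKI from Inmt transgenic mice, made to overexpress Inmt, an enzyme that adds methyl groups to indoleamines, in proximal tubules. In the methods both were male C57BL/6 mice, and the controls of the line were littermates. Per the methods, both groups had received voclosporin, a calcineurin inhibitor, at 30 mg/kg by daily intraperitoneal injection. It was given for 2 weeks between 8 and 10 weeks of age, while a results passage of the study gives a longer course before ischemia. The labels state no treatment and do not settle the length. Both groups then had bilateral renal ischemia for 30 min followed by reperfusion at 14 weeks of age. By this account neither library is an uninjured or an untreated kidney. Kidneys were taken 48 h after injury per the methods and 24 h after injury per a figure legend, and the labels do not settle which. The promoter that drives the transgene is not given in the sources used here. The label of TG+AKI also calls the animals conditional knockout mice. Inmt itself stood at 10.4 normalized units in WT+AKI against 402.8 in TG+AKI, 38.55-fold higher, which is the direction of a transgenic kidney. The study reports lower Inmt staining in wild-type kidneys under voclosporin and further after ischemia, so the ratio does not measure overexpression alone.

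Pax2 and Pax8 are paired-box factors that the embryonic kidney needs to form nephrons. The adult sites of both include the collecting duct, distal nephron and parietal epithelium of the glomerulus, without being limited to them. Sox9 and Sox4 belong to the SRY-box family, whose HMG domain bends DNA. Sox9 is best known in this tissue as a gene that proximal tubule cells switch on after ischemia while they dedifferentiate and divide. Tfcp2l1, of the Grainyhead and CP2 family, patterns the cells of the collecting duct, and Irx1, an Iroquois homeobox factor, belongs to the intermediate and distal nephron. Maf is a large basic leucine zipper factor of lens, macrophages and proximal tubule, and Emx1 is a homeobox factor known mostly from the cerebral cortex, whose relative Emx2 is needed to build the urogenital tract.

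On the mouse genome build GRCm38 (mm10) with GENCODE annotation, Sox9 lies at chr11:112782224-112787760 on the plus strand with 3 exons, and Sox4 at chr13:28948919-28953713 on the minus strand with 1 exon. Pax2 is at chr19:44756045-44837871 on the plus strand, and Pax8 at chr2:24420560-24475599 on the minus strand. Tfcp2l1 is at chr1:118627945-118685168 on the plus strand, and Irx1 at chr13:71957921-71963723 on the minus strand. Maf is at chr8:115682942-115707794 on the minus strand, and Emx1 at chr6:85187438-85204462 on the plus strand. In Sox4, 2616 exon bases are shared with Gm26735, a long noncoding RNA annotated on the opposite strand, and 53.6% of the 100-base words of its transcript occur there. The kit marked the strand but the counting setting is not stated, so reads of Sox4 and Gm26735 may have been counted together or dropped, and Gm26735 has no row in the table. Maf shares 440 exon bases with the antisense RNA Gm15655 and Pax8 shares 367 with Gm13415, both on the opposite strand. Tfcp2l1 shares 130 exon bases with Gm23497, a small nuclear RNA on the same strand, which counting by strand would not separate, while Pax2, Sox9, Irx1 and Emx1 share none with an annotated gene.

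RefSeq (GRCm38.p6) start windows were matched for 5 of the 8 genes. Of the genes past 2-fold higher, Maf had no window and that of Emx1 lies wholly inside its own annotated exons. Shown are windows of Pax8 and Tfcp2l1, the pair with the highest level per length in WT+AKI, and of Sox4, past 2-fold lower in TG+AKI. Each is the sequence just before the RefSeq start, 5′ to 3′ on the strand of the gene, without bases inside an annotated exon of the same gene. Capitals mark a CCAAT box (CCAAT, or ATTGG on the other strand) in Sox4, a CCAAT box and a GC box (CCGCCC, the other strand of GGGCGG) in Pax8, and a TATA box (TATAAA) in Tfcp2l1. They lie at chr13:28953714-28953949 (minus), chr2:24475600-24475849 (minus) and chr1:118627695-118627944 (plus).
Sox4: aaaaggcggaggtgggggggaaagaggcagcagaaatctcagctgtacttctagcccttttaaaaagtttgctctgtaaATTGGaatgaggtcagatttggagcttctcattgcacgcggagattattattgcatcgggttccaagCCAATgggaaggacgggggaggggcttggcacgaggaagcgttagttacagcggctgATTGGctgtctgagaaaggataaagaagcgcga
Pax8: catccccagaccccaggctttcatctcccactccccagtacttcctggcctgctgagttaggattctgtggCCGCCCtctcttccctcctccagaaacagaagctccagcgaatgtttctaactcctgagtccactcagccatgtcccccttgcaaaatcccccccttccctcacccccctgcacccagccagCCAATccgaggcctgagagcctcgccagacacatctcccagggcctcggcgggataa
Tfcp2l1: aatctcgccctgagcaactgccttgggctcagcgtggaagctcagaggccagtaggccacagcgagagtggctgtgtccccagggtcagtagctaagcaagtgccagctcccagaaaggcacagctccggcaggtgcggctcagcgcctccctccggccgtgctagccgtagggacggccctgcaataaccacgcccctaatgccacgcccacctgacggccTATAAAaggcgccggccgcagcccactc

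The Sox4 window of 250 bases holds 4 CCAAT boxes, of which 3 are in the 236 bases printed. A CCAAT box occurs in 33.8% of the 32817 mouse start windows of this length and at least 4 copies occur in 0.835% of them. Pax8 holds its CCAAT box 53 to 57 bases before the start and its GC box 174 to 179 bases before it, and a GC box occurs in 32.7% of windows. Tfcp2l1 has its TATA box 23 to 28 bases before the start, a motif that 12.4% of windows hold. Searched on both strands in the same windows were also the SOX motif AACAAT (9.42% of windows), the AP-1 motif TGANTCA (6.75%), the cyclic AMP element TGACGTCA (1.55%), the STAT motif TTCNNNGAA (7.01%), the E-box CACGTG (6.02%) and the HNF1 motif GTTAAT (6.44%). None of these letters occur in the windows of Sox4, Pax8 or Tfcp2l1. Of the windows not shown, that of Emx1 holds GC boxes, and those of Pax2 hold GC boxes and a STAT motif. The GC content was 50.8% for Sox4, 60.4% for Pax8 and 65.2% for Tfcp2l1, against a median of 52.4% over all windows. These are letter matches and not measured binding sites.

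The normalized value of a gene is its read count scaled to 1000000 reads of a library corrected for composition. On this scale 1 read was worth 0.0236 in WT+AKI against 0.0302 in TG+AKI. The listed genes held 38542764 reads in WT+AKI against 36427421 reads in TG+AKI. Differences are TG+AKI minus WT+AKI on the log2(value + 1) scale, where the pseudocount shrinks the change of genes with low values. Ratios of values carry an exact 95% Clopper-Pearson interval on the reads, which covers counting error only, and reads without molecular identifiers are not independent molecules. With 1 library for each group there is no replicate check, and a difference between these libraries is not a test of the genotype. In bulk kidney RNA, fewer cells of a type and less RNA per cell cannot be told apart.

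In TG+AKI Sox9 and Sox4 were lower, Maf and Emx1 were higher, and Pax2, Pax8, Tfcp2l1 and Irx1 stayed within 2-fold. Of the 8 genes, all reached a value of 10 in 1 or both libraries and so were among the 10294 genes compared. Maf and Emx1 were at least 2-fold higher, a call that 5.74% of all compared genes reached. Sox9 and Sox4 were at least 2-fold lower, a call that 7.12% of all compared genes reached. The median difference of the 8 genes was −0.05, beside 0.01 over all compared genes, so as a set they had no common direction. In an exact binomial test on the reads of the 2 libraries, 7 of the 8 genes had a Benjamini-Hochberg adjusted p under 0.05, but so did 80.4% of all compared genes, and at this depth the test separates libraries rather than conditions. The exception was Pax2. Below, a pair of values for a gene is given as WT+AKI first and TG+AKI next, and a value in parentheses after it is the log2(value + 1) difference.

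**Figure D1:**
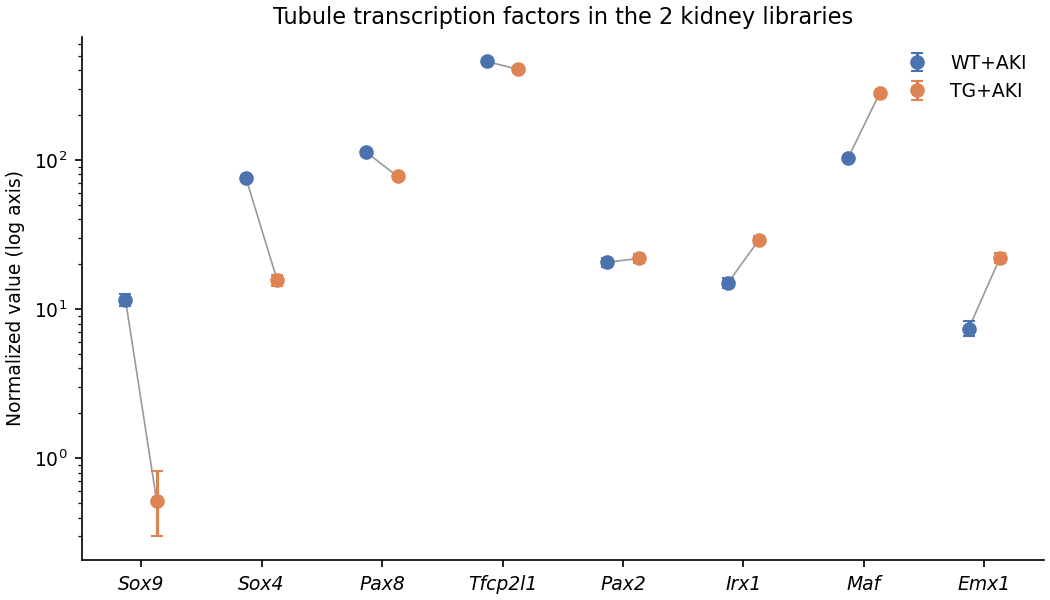
Normalized value (log axis) of the 8 genes in WT+AKI (blue) and TG+AKI (orange), 1 library each. Bars are exact 95% intervals for counting error, hidden by the point where narrow. Sox9 lies at 11.6 in WT+AKI but 0.513 in TG+AKI, Maf at 103.5 but 279.6, and Pax2 at 20.6 and 21.9.

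Sox9 had the largest difference of the set. Its value was 11.6 in WT+AKI, from 490 reads, and 0.513 in TG+AKI, from 17 reads. The library with the lower value thus still held reads above the floor of 3 reads, and Sox9 was detected in both. Since 0.513 is under the filter, Sox9 entered the comparison through WT+AKI alone. It was 22.5-fold lower in TG+AKI (95% interval 13.9 to 39.0) and differed by −3.05 on the log2(value + 1) scale. Only 0.729% of compared genes had a lower difference, and 11 compared genes lay within 0.1 of it. Of the compared transcription factors of the nephron lineage, segment and injury lists, Myc, a growth regulator, came closest to Sox9, at −2.66.

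Sox4, a relative of Sox9 with roles in nephron formation and in epithelial plasticity, was the more abundant of the pair per length of transcript, as given further on. It had a value of 75.8 in WT+AKI, from 3213 reads, and 15.6 in TG+AKI, from 517 reads. Sox4 was 4.85-fold lower in TG+AKI (95% interval 4.42 to 5.34), a difference of −2.21 that 1.58% of compared genes undercut. Myc was also the compared factor closest to Sox4. Of the injury factors under the filter, Runx1 lay closer to Sox4 than Myc did, at −2.25, and Etv4 closer to Sox9, at −2.78. How reads in the stretch shared with Gm26735 were counted is not known for either library. Within each library, Sox4 had 6.56 reads for each Sox9 read in WT+AKI against 30.4 in TG+AKI. That ratio was 4.64-fold higher in TG+AKI (exact conditional 95% interval 2.83 to 8.10), so the difference of Sox9 exceeded that of Sox4 by more than counting error, whatever the scaling between libraries.

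In the Sox family, the calls at 2-fold were those of Sox9 and Sox4. Of 19 Sox genes, 12 were listed and 7 were compared, none higher by the 2-fold rule and 2 lower, namely Sox9 and Sox4. Sox11, the closest relative of Sox4, was under the filter, with 3.07 in WT+AKI from 130 reads and 0.181 in TG+AKI from 6 reads. Sox12 of the same subgroup had 11.2 and 11.3, and Sox13 had 36.8 and 37.1, both level here and slightly lower in TG+AKI when the libraries were scaled to equal totals or to a median ratio of 1. Sox6, a partner of Sox9 in cartilage, had 27.2 and 38.3, a difference of 0.48. Apart from Sox11, these relatives kept within 2-fold. Sox17, an endothelial factor, had 8.42 and 11.4, and Sox18, another, had 5.76 and 11.1 (0.85). Sox7 of the same subgroup had 3.89 and 3.23, and Sox5, like Sox6 a cartilage partner, had 3.33 and 1.90. These were low genes, and Sox5 and Sox7 were under the filter. Sox8, the near relative of Sox9, had 10 reads and 21 reads, and Sox10 had 5 and 2. The 3 Sox genes with lower values in TG+AKI by over 4-fold were thus Sox4, Sox9 and Sox11.

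Factors of injury and dedifferentiation were lower on balance in TG+AKI as well. Of 18 listed, 9 were compared, 5 were at least 2-fold lower and none was at least 2-fold higher, with a median of −1.07. Myc had 36.0 and 4.86, and Cebpd, an acute phase factor, had 21.6 and 6.16. Elf3, an epithelial factor of the ETS family, had 28.9 and 10.7, and Cebpb, a relative of Cebpd, had 22.8 and 8.79. The 4 named genes had differences from −2.66 to −1.28, so Sox9 lay below all of them and Sox4 between Myc and Cebpd.

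Genes known from Sox9-positive repairing tubules were also mostly lower. The list includes tubular injury markers such as Havcr1 and Lcn2 and is not particular to Sox9-positive cells. Of 24 genes, all listed and 22 compared, 17 were at least 2-fold lower and none was at least 2-fold higher, with a median of −1.91. Their summed value was 14950 in WT+AKI against 1686 in TG+AKI, and most of that drop came from Spp1, at 10180 and 670.5. Havcr1, which encodes the injury receptor KIM-1, had 1169 and 2.78 (−8.27), and Krt20, a keratin of injured epithelium, had 399.2 and 0.362 (−8.20). Lcn2, which encodes NGAL, had 249.8 and 1.87 (−6.45), and S100a6, a calcium-binding protein, had 186.3 and 5.22 (−4.91). All 4 had larger differences than Sox9. Like Sox9, these 4 were under the filter in TG+AKI and were compared through WT+AKI alone. Their differences depend on the pseudocount, and with a pseudocount of 10 Havcr1 differed by −6.53 and Krt20 by −5.30. The list was chosen with earlier results of these libraries known and is no independent evidence of a direction. Of the 13 cartilage genes that Sox9 controls in chondrocytes, 6 were listed and only Sox6 was compared, so the cartilage list says nothing here.

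**Figure D2:**
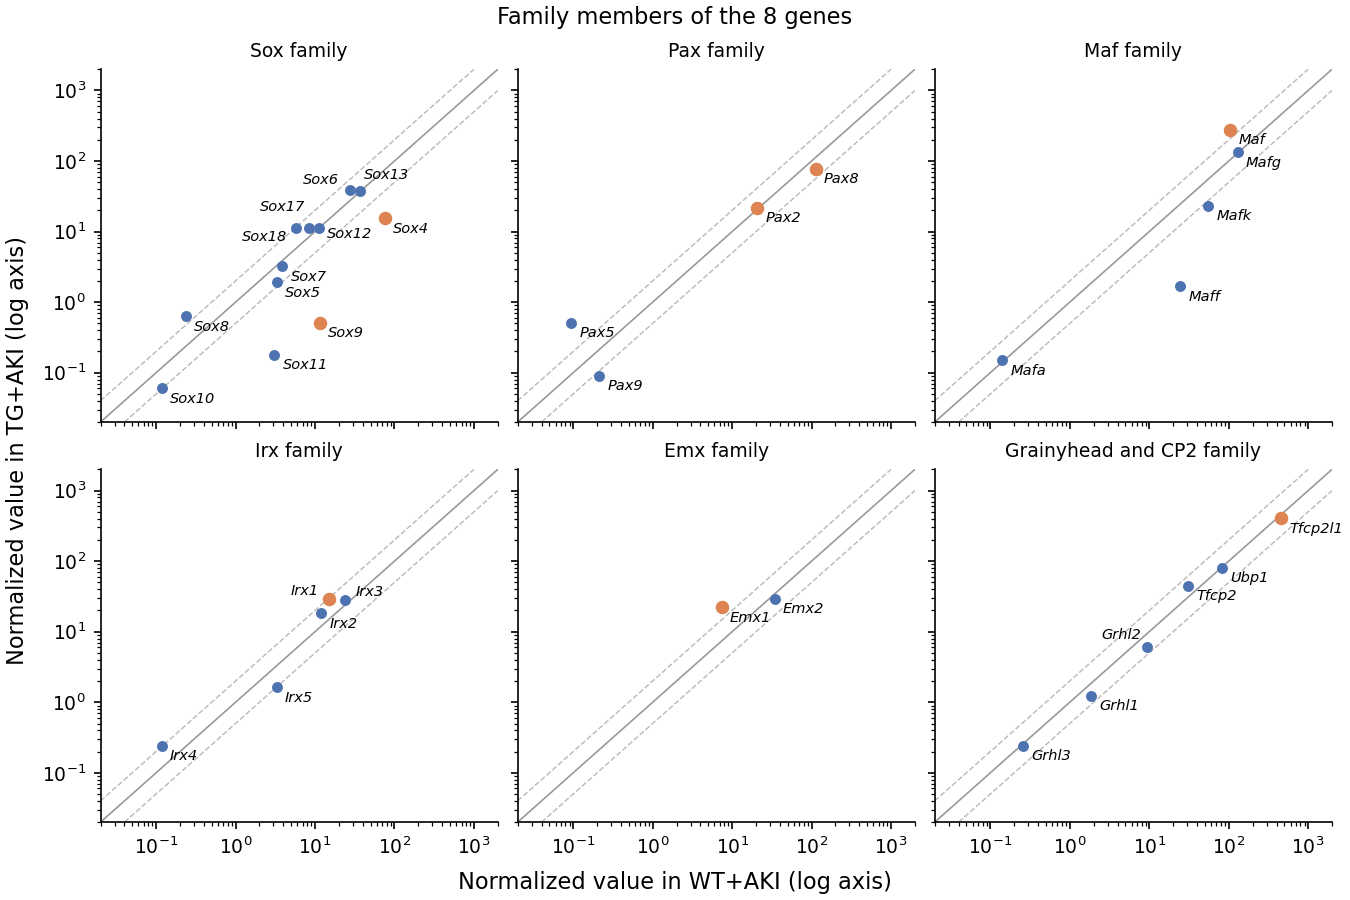
Normalized values of genes of 6 families in WT+AKI (x, log axis) and TG+AKI (y, log axis), 1 point per gene, with the 8 genes in orange. The solid line marks equal values and the dashed lines a 2-fold ratio of values. Of the genes with a value of 10 or more in either library, Sox4, Sox9, Maff and Mafk lie below the lower dashed line and Maf and Emx1 above the upper, with Irx1 at 1.96-fold just inside it.

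Pax8, the more abundant of the Pax pair per length of transcript, was lower in TG+AKI. It had 112.6 in WT+AKI from 4773 reads and 77.5 in TG+AKI from 2568 reads. That was 1.45-fold lower (95% interval 1.38 to 1.52) and a difference of −0.53, which 15.6% of compared genes undercut. Its difference was thus outside counting error but common among genes, with 645 compared genes within 0.1 of it. Ehf, an epithelial ETS factor, had the closest difference of the compared factors, at −0.57.

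Pax2 did not differ beyond counting error between the libraries. It had 20.6 in WT+AKI from 874 reads and 21.9 in TG+AKI from 724 reads, a ratio of 1.06 (95% interval 0.960 to 1.17). The difference of 0.08 turned to −0.18 with libraries at equal totals and to −0.06 with the median ratio at 1, so no direction can be given for Pax2. Foxi1, the master regulator of intercalated cells, was the compared factor with the closest difference, also 0.08 (−0.19 with equal totals). Within a library, Pax2 had 0.183 reads for each Pax8 read in WT+AKI against 0.282 in TG+AKI. The ratio was 1.54-fold higher in TG+AKI (exact conditional 95% interval 1.38 to 1.72), so the proportion of the pair differed by more than counting error. Of the 9 Pax genes, Pax5, a B cell factor, and Pax9 were the other ones listed, with 4 and 17 reads and with 9 and 3 reads.

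Partners of Pax proteins lay on both sides of zero, and genes known to lie downstream of Pax2 and Pax8 lay mostly above it. Of 10 cofactors, 8 were listed and 4 compared, with none past 2-fold and a median of −0.13. Eya3, a phosphatase cofactor of the Eya family, differed by −0.34 and Paxbp1, which joins Pax proteins to a histone methyltransferase, by −0.32. Of 10 genes downstream in kidney, 9 were listed and 6 compared, with 2 called higher and 1 called lower. Under the deposited scaling 5 of those compared lay above zero and 1 below, with a median of 0.87. Fras1, a basement membrane protein, had 10.2 and 38.2 (difference 1.80), and Lhx1, a LIM homeobox factor of the nephron lineage, had 11.4 and 28.9 (1.27). Slc14a2, the urea transporter of thin limb and inner medullary collecting duct, had 90.5 and 40.9 (−1.13). Avpr2, the vasopressin receptor, had 7.69 and 16.2 (0.99), just inside 2-fold on this scale. Aqp2, the vasopressin-regulated water channel, had 153.5 and 178.3 (0.21), which became −0.06 with equal totals.

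Markers of some of the cells that express Pax2 and Pax8 moved in different ways beside them. The 11 principal cell markers, all compared, included 1 at least 2-fold higher and none lower, with a median of 0.35 and sums of 432.9 and 564.5. Of 9 parietal epithelium markers, a list that holds Pax2 and Pax8 themselves, 7 were compared, 1 was higher and 2 were lower by the 2-fold rule, with sums of 713.3 and 219.2. Most of that drop came from Akap12, a scaffold protein, at 397.1 and 19.5. The part of these markers in the Pax8 difference was not tested.

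Tfcp2l1 had the most reads of the set in both libraries and was slightly lower in TG+AKI. It had 458 in WT+AKI from 19418 reads and 405.1 in TG+AKI from 13416 reads. The ratio was 0.885 (95% interval 0.865 to 0.904) and the difference −0.18, close to the middle of all genes, with 1532 compared genes within 0.1 of it. Emx2 had the closest difference of the compared factors, at −0.21.

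In the family of Tfcp2l1, no compared gene passed 2-fold. All 6 Grainyhead and CP2 genes were listed and 3 compared, with a median of −0.02. Tfcp2, a widely expressed relative, had 30.8 and 45.1 (0.54), and Ubp1, its close homologue, had 81.7 and 80.5 (−0.02). Grhl2, an epithelial barrier factor of collecting duct, had 9.51 and 6.07. Grhl1 had 1.86 and 1.24, and Grhl3 had 11 reads and 8 reads. The Grainyhead genes were thus all under the filter.

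Under the deposited scaling, genes downstream of Tfcp2l1 in the collecting duct lay mostly above zero. All 15 were listed and 14 compared, with 3 at least 2-fold higher, none at least 2-fold lower and a median of 0.33. Of those compared, 12 lay above zero and 2 below, among them Jag1 at −0.49. The count above zero depends on the scaling, since equal totals shift log2 ratios by −0.28. Foxi1, which is on this list, went from 0.08 to −0.19 there. Slc4a1, the chloride and bicarbonate exchanger of acid-secreting cells, had 11.5 and 51.3 (2.06). Insrr, an alkali-sensing receptor, differed by 1.38, and Oxgr1, the receptor for oxoglutarate, by 1.27. Atp6v1b1, a proton pump subunit of intercalated cells, had 43.0 and 84.9 (0.96). Slc4a1, Insrr, Oxgr1 and Atp6v1b1, which had the largest differences of the list, were thus higher in TG+AKI, where Tfcp2l1 itself was slightly lower. Intercalated cell markers, many of them the same genes, had sums of 417.1 and 632.3, with 3 of 12 compared at least 2-fold higher, none lower and a median of 0.47. Their part in these values was not tested.

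Irx1 was close to 2-fold higher in TG+AKI. It had 14.9 in WT+AKI from 633 reads and 29.2 in TG+AKI from 968 reads, a ratio of 1.96 (95% interval 1.77 to 2.17). The difference of 0.92 was exceeded by 6.84% of compared genes and stayed under the 2-fold call in all alternatives that were run. Pou3f3, a POU factor of thick ascending limb and distal tubule, came closest among the compared factors, at 0.64 (47.9 and 75.1).

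Other Iroquois genes were nearer to level. Of 6 in the family, 5 were listed and 3 compared, with none past 2-fold and a median of 0.58. Irx2 had 11.9 and 18.3 (0.58). Irx3, of the nephron segment between proximal and distal tubule, had 23.99 and 27.93 (0.21, and −0.05 with equal totals). Irx5 was under the filter with 3.30 and 1.63, and Irx4 had 5 reads and 8 reads. Irx1 was the member of the family with the largest difference among those compared. Thick ascending limb markers had sums of 2201 and 4815 beside it, with 5 of 9 compared at least 2-fold higher, none lower and a median of 1.08. Distal convoluted and connecting tubule markers had 1 of 9 compared at least 2-fold higher, none lower and a median of 0.66. Thin limb markers went the other way, with 1 of 7 compared higher, 4 lower and a median of −1.13. The part of these lists in the Irx1 difference was not tested.

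Among the 8 genes, Maf was the most abundant of those that were higher in TG+AKI. It had 103.5 in WT+AKI from 4386 reads and 279.6 in TG+AKI from 9259 reads. It was 2.703-fold higher (95% interval 2.61 to 2.80), a difference of 1.43 that 2.59% of compared genes exceeded, with 100 compared genes within 0.1 of it. Hnf4a, the nuclear receptor that maintains proximal tubule differentiation, had nearly the same difference, 1.43, with 396.6 in WT+AKI against 1072 in TG+AKI. Within a library, Maf had 0.226 reads for each Tfcp2l1 read in WT+AKI against 0.690 in TG+AKI.

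Among relatives of Maf, the small Mafs Maff and Mafk were at least 2-fold lower. Maff, a small Maf that lacks an activation domain, had 24.6 and 1.69 (−3.25), a larger difference than that of Sox9. Mafk, also a small Maf, had 54.9 and 23.3 (−1.20). Mafg, the most abundant small Maf per length of transcript, had 129.6 and 133.9 (0.05, and −0.23 with equal totals). Mafa, a large Maf of pancreatic beta cells, had 6 reads and 5 reads. The small Mafs were therefore not alike.

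Genes known downstream of Maf lay on both sides of zero. Of 8, 5 were listed and 4 compared. Gpx3, the secreted glutathione peroxidase made by proximal tubule, had 15890 and 25680, a difference of 0.69. The complement genes of macrophages were lower, C1qa at 18.2 and 6.73 (−1.31), C1qc at 18.4 and 6.40 (−1.39) and C1qb at 21.2 and 10.5 (−0.95). Macrophage markers as a list, which holds these same complement genes, had sums of 235.7 and 99.9, with 7 of 10 compared at least 2-fold lower and none higher. Maf thus lay on the other side of zero from most of these markers. Proximal tubule markers of segments S1 and S2 had sums of 4649 and 17720, with 13 of 14 at least 2-fold higher, and those of segment S3 had 4 of 10 at least 2-fold higher. The part of these markers in the Maf difference was not tested.

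Emx1 had the fewest reads of the set in WT+AKI and differed about as much as Maf. It had 7.41 in WT+AKI from 314 reads and 22.1 in TG+AKI from 731 reads, 2.98-fold higher (95% interval 2.61 to 3.41). The difference of 1.46 was exceeded by 2.39% of compared genes and dropped to 0.88, under the 2-fold call, with a pseudocount of 10. Hnf4a was the closest compared factor for Emx1 as well as for Maf. Because its value in WT+AKI was under 10, Emx1 was compared through its value in TG+AKI. Emx2, its relative, was slightly lower in TG+AKI, with 34.2 and 29.5 (−0.21). Per kb of the longest transcript, Emx2 had 11.7 and 10.1 and Emx1 4.74 and 14.1, so Emx1 had the lower level of the pair in WT+AKI. With the union of annotated exons as the length, Emx1 fell to 10.1 per kb in TG+AKI. The order of the pair in TG+AKI therefore depends on the length used and is not settled.

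**Figure D3:**
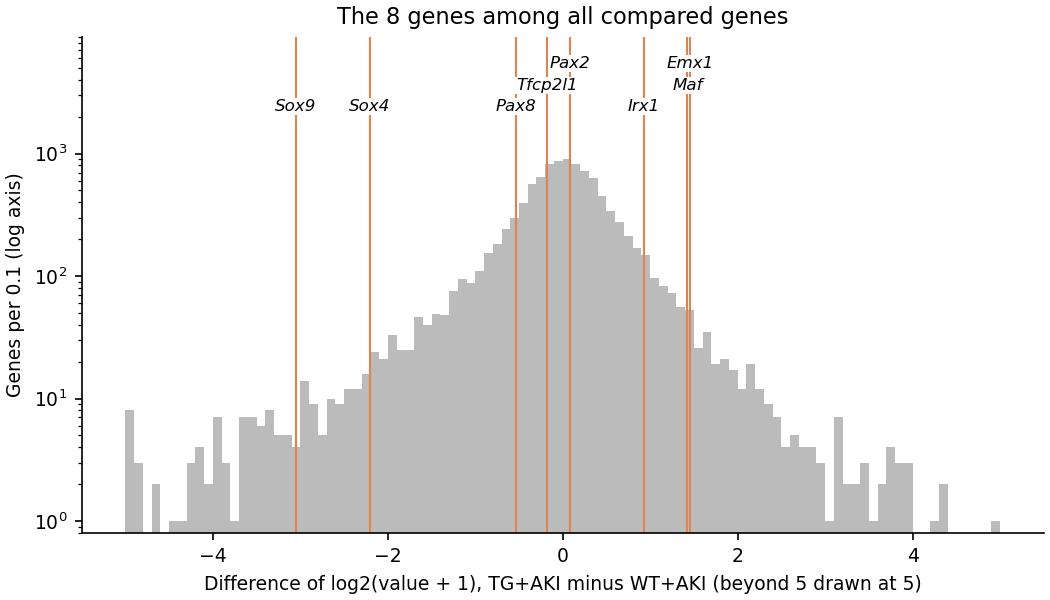
Number of the 10294 compared genes (log axis) in each interval of 0.1 of the log2(value + 1) difference, TG+AKI minus WT+AKI, in grey, with differences beyond 5 drawn at 5. Orange lines mark the 8 genes, with Sox9 at −3.05 and Sox4 at −2.21 in the lower tail, Irx1 at 0.92, Maf at 1.43 and Emx1 at 1.46 in the upper tail, and Pax2, Tfcp2l1 and Pax8 near the centre.

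Within each library, reads of a pair of genes can be compared without any scaling between libraries. All 28 pairs of the 8 genes were compared in this way, and for 27 the exact conditional 95% interval of the ratio of ratios lay away from 1. The exception was Maf with Emx1, at 14 Maf reads for each Emx1 read in WT+AKI against 12.7 in TG+AKI, a ratio of 0.907 (0.788 to 1.04). Maf and Emx1 therefore kept their proportion within counting error although they differ in level. The widest shift was between Sox9 and Emx1. Sox9 had 1.56 reads for each Emx1 read in WT+AKI against 0.0233 in TG+AKI, 67.1-fold lower (40.5 to 118). Against Maf, Sox4 was 13.1-fold lower in TG+AKI (11.9 to 14.5), and Sox9 was 60.8-fold lower (37.5 to 105). Pax8 had 1.09 reads for each Maf read in WT+AKI against 0.277 in TG+AKI, 3.92-fold lower (3.69 to 4.17). The Irx1 to Emx1 ratio was 2.02 and 1.32, a ratio of 0.657 (0.554 to 0.778), which separates Irx1 from Emx1 by more than counting error. These intervals were computed from counts of single libraries and do not cover variation between mice.

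Levels of different genes were set side by side only per kb of the longest annotated transcript. On this scale Tfcp2l1 was highest in WT+AKI at 49.4 per kb, followed by Pax8 at 33.2. Maf at 16.3 (15.8 to 16.8) and Sox4 at 15.8 (15.3 to 16.4) had overlapping intervals and cannot be ordered. Irx1 followed at 6.29. Emx1 at 4.74 (4.23 to 5.30) and Pax2 at 4.73 (4.42 to 5.06) also overlapped, and Sox9 was lowest at 2.80. In TG+AKI the order per kb was another. Maf at 44.0 (43.1 to 44.9) stood level with Tfcp2l1 at 43.7 (43.0 to 44.5), and Pax8 followed at 22.9. Emx1 had 14.1 (13.1 to 15.2) and Irx1 12.3 (11.6 to 13.1), with intervals that nearly met. Pax2 had 5.02, Sox4 3.26 and Sox9 0.124 per kb. Sox4 thus moved from the middle of the order to below Pax2, and Sox9 was last in both libraries. With the union of annotated exons as the length, Sox4 came above Maf and Pax2 above Emx1 in WT+AKI, and Tfcp2l1 above Maf and Irx1 above Emx1 in TG+AKI, so these neighbours have no settled order.

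Of other factors of the nephron lineage, 1 passed the 2-fold call. Of 22, 19 were listed and 10 compared, with Lhx1 being the gene called (higher) and a median of 0.09. Sim1, a factor of nephron patterning, had 12.2 and 18.6 (0.58), Tcf21, a podocyte and stromal factor, 13.5 and 18.4 (0.42), and Hoxb7, a ureteric bud factor, 23.9 and 20.3 (−0.22). None of them came near the differences of Sox9 or Sox4. Of 22 tubule segment factors, all were listed and 14 compared, with 2 called higher and 1 called lower, and a median of 0.34. These were Hnf4a (1.43), Esrrb, an estrogen-related receptor of the distal nephron, at 11.6 and 29.3 (1.26), and Elf3 (−1.35). Maf and Emx1 thus had differences close to that of Hnf4a, the largest of the segment list.

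**Figure D4:**
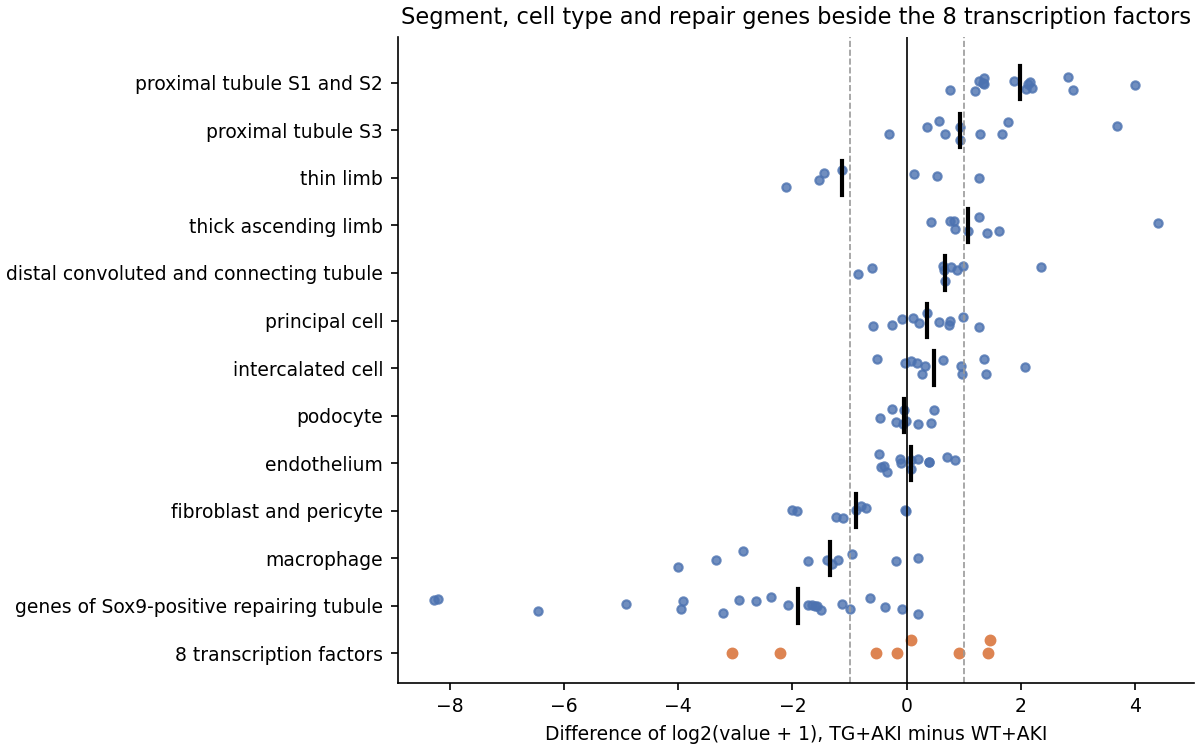
Differences of log2(value + 1), TG+AKI minus WT+AKI, for the compared genes of marker and repair lists (blue points, black bar at the median of the list) and for the 8 genes (orange), with dashed lines at 2-fold. Markers of proximal tubule segments S1 and S2 have a median of 1.98 and genes of repairing tubules a median of −1.91. The 8 genes spread from −3.05 to 1.46 across both.

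Markers of proximal tubule, thick ascending limb, distal tubule, principal and intercalated cells were all listed in both libraries, cell types that a whole kidney holds. Distal convoluted and connecting tubule markers had 1 of 9 compared at least 2-fold higher and none lower, with a median of 0.66. Thin limb markers had 1 of 7 higher and 4 lower, with a median of −1.13. The higher one was Aqp1, which is also on the list of proximal tubule segments S1 and S2. Of 14 endothelial markers, 13 were compared and none was past 2-fold, with a median of 0.07 and sums of 780.5 and 739.7. All 9 podocyte markers were compared with none past 2-fold and a median of −0.05. Fibroblast and pericyte markers had 4 of 9 compared at least 2-fold lower and none higher, with a median of −0.89. Blood and urothelial markers were low in both libraries, and none of them was compared. Their sums were 3.73 and 5.59 for lymphocytes, 8.255 and 1.57 for neutrophils and 9.58 and 4.80 for urothelium. The part of these cells in the differences of Sox4, which stroma and endothelium also express, was not tested.

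The scaling between libraries moved all genes together. With equal totals, log2 ratios shifted by −0.28, with the median ratio of well-expressed genes at 1 by −0.14, and with DESeq2 size factors by 0.02. Under these scalings and pseudocounts of 0.1 and 10, Sox9 ranged from −4.25 to −1.04 and Sox4 from −2.47 to −1.74. Maf ranged from 1.15 to 1.44, Emx1 from 0.88 to 1.56 and Irx1 from 0.65 to 0.96. Pax8 ranged from −0.80 to −0.49 and Tfcp2l1 from −0.45 to −0.16. Pax2 was the only member to change sign. With equal totals, 359 of all compared genes passed the 2-fold call as higher and 1141 as lower, beside 591 and 733 as deposited.

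**Figure D5:**
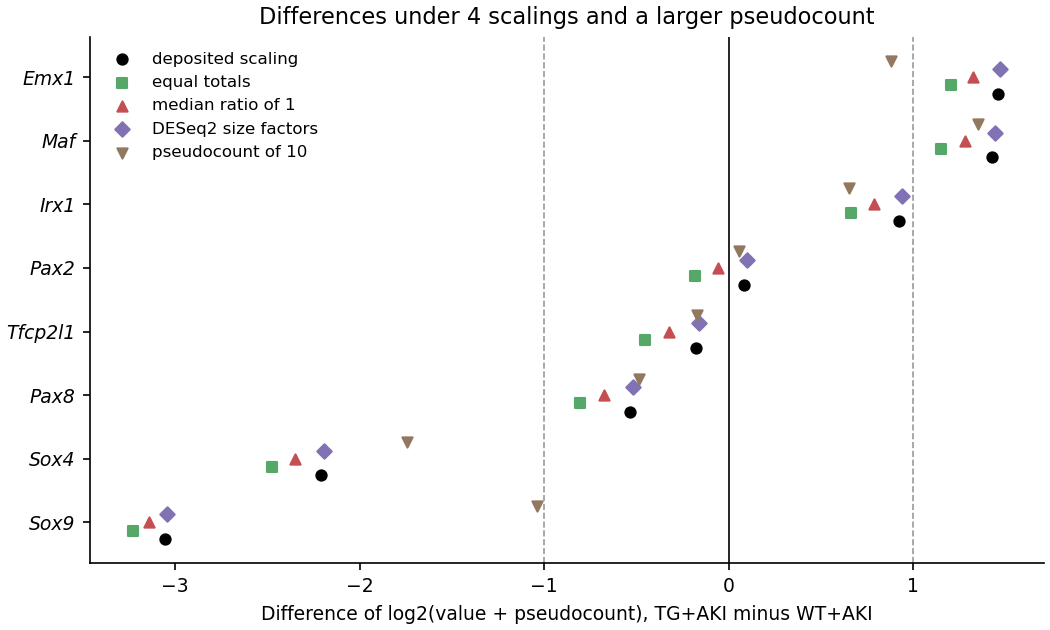
Differences of log2(value + pseudocount), TG+AKI minus WT+AKI, of the 8 genes under the deposited scaling (black), 3 other scalings and a pseudocount of 10, with dashed lines at 2-fold. Sox9 moves most, to −1.04 with a pseudocount of 10, Emx1 drops to 0.88 there, and Pax2 crosses zero, down to −0.18 with equal totals.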

How the data were processed

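RNA from whole kidney was sequenced as 1 WT+AKI and 1 TG+AKI library, and groups were taken from the library names in the labels. Per the labels and methods, left kidney RNA was made into stranded mRNA libraries (TruSeq) and sequenced with reads of about 100 bp. Reads were aligned with STAR and counted per gene with HTSeq, and the submitters' processing notes name STAR 2.7.3a, build mm10, edgeR and DESeq2. The strand setting and gene annotation of the counting are not given in the sources used here.

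The authors deposited 1 normalized signal value per gene and library. All values were integer multiples of the smallest step in their column (100% within a tolerance of 0.01), so whole reads were recovered, and the steps matched reads per 1000000 of a library scaled by edgeR's TMM factors (1.10 and 0.909). No listed gene had fewer than 1 read in a library, so a gene without reads in 1 library has no row and was not analysed here. The labels state no treatment, while the series design names voclosporin.

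Members and gene lists were chosen with earlier results of these data known, and no list was tested. Genes reaching a value of 10 in 1 or both libraries (424.0 and 331.2 reads) were compared as log2(value + 1) differences and called at 2-fold. A count model across conditions could not be used with 1 library per group. Read ratios carry exact Clopper-Pearson intervals, pairs of members exact conditional intervals (scipy 1.17.1), both at 95%. The exact binomial test was adjusted by Benjamini-Hochberg over all compared genes. Values came from Python 3.11.15 and R 4.3.3 with edgeR 4.0.16 and DESeq2 1.42.0 for scaling factors, and the ratio code was tested on simulated data. Named were all 8 members, relatives of their families, at most the 4 genes with the largest difference in each other list, and Gpx3, Aqp2, Slc14a2, Atp6v1b1, Slc4a1 and Inmt. For each member, the compared factor of the nephron lineage, segment and injury lists with the closest difference was named. Runx1, Etv4, Spp1 and Jag1 were named in addition, as limits on what is said of their lists. Alternatives were other pseudocounts, scalings and filters, an interval beyond 2-fold, and another transcript length. Transcript positions and lengths came from GENCODE, and start windows from RefSeq. A withheld gene is not reported here.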

Additional observations from a re-analysis of the deposited data

How the results depend on the processing

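The direction of 7 of the 8 genes held under all scalings and pseudocounts run, and that of Pax2 did not, as described above. Of 40 recomputed member values, 22 stayed within the counting interval and 18 moved beyond it. With a pseudocount of 10, 1 member instead of 2 was at least 2-fold higher, since Emx1 fell under the call, and all compared genes gave 372 higher and 408 lower calls. Under a filter of 50, only Pax8, Sox4, Maf and Tfcp2l1 were compared, with 1 member higher and 1 lower, and 374 of all genes were higher and 295 lower. Equal totals gave 359 higher and 1141 lower genes, and no filter or a filter of 1 gave 1150 lower. The median of the members was −0.32 with equal totals and −0.19 with the median ratio at 1, following the shift of all genes (medians −0.26 and −0.13). Per kb, 12 of 16 levels moved with the union of exons as length. Of 102 other genes recomputed, 93 kept their sign, and Aqp2, Foxi1, Irx3, Mafa, Mafg, Paxip1, Sox12, Sox13 and Tle4 did not. No paired analysis was possible because each group has 1 library, so neither spread between mice nor leaving out a library could be assessed. Depth limits Sox9 in TG+AKI, which rests on 17 reads.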
